A study of Mus musculus with 20 samples.

Results

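C1qa, C1qb, Lyz2, Tyrobp, Cd68 and Csf1r, 6 genes used as macrophage markers, and Pla2g7, which encodes an enzyme that macrophages secrete, were followed in mouse kidney. They were taken by gene symbol: every probe set that the array's annotation assigns to 1 of these 7 genes alone was a member. This gave 7 of the 8251 genes with such a probe set, and 11 of the 12422 probe sets that are not controls. C1qb, Lyz2, Cd68 and Csf1r had 2 probe sets each, and C1qa, Tyrobp and Pla2g7 had 1. A probe set assigned to Lyz1 and Lyz2 together was not a member.

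The study fed a low phosphate or a control diet to Hyp mice and to normal mice, all labelled C57BL/6J, for 3 or 5 days, and hybridised kidney RNA to oligonucleotide arrays. Each array carried RNA pooled from 3 mice. This gave 4 groups of 5 arrays each: Hyp fed low phosphate, Hyp fed control diet, normal fed low phosphate and normal fed control diet. Every group held 2 arrays of male mice at 5 days and 1 array each of males at 3 days, females at 5 days and females at 3 days; the labels give no age. In Hyp mice the gene Phex is mutated and phosphate is lost in the urine, as in X-linked hypophosphatemia; the mutation is inherited, so every cell type carries it. Phex itself was dim in each group (62.3 ± 31.1 in Hyp on low phosphate, 24.6 ± 11.6 in Hyp on control diet, 44.9 ± 27.0 in normal on low phosphate and 36.9 ± 19.9 in normal on control diet, SD, n = 5 each), so it did not check the genotype labels.

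Macrophages live between the tubules of the kidney, where they clear debris and immune complexes. Csf1r is the receptor for colony-stimulating factor 1, on which their survival depends, and Tyrobp is the membrane adaptor through which several of their activating receptors signal. C1qa and C1qb encode chains of C1q, the recognition molecule that starts the classical complement pathway. Lyz2 encodes lysozyme, an antibacterial enzyme, and Cd68 a glycoprotein of the lysosome membrane. Pla2g7 encodes the secreted platelet-activating factor acetylhydrolase, which removes the acetyl group of platelet-activating factor and cleaves oxidised phospholipids.

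The 250 bases before the transcription start were read from RefSeq's promoter table (GRCm38.p6), which held 4 of the 7 members: C1qb, Lyz2, Cd68 and Pla2g7. In macrophages many lineage genes are driven by the transcription factor PU.1, so a core of its motif (GAGGAA) and the AP-1 motif (TGAGTCA), a site for Fos and Jun proteins, were searched on both strands. The promoters of Pla2g7, the member that differed between genotypes, and of C1qb and Cd68, which did not pass the test, are printed 5′ to 3′ on the gene's strand, with these motifs in capitals.
Pla2g7, chr17:43568201-43568450, plus strand: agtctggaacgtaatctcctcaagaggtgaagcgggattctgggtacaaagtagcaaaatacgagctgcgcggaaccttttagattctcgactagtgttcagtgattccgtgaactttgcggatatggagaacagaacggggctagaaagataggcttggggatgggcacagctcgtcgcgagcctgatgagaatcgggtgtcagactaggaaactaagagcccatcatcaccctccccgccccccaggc
C1qb, chr4:136886201-136886450, minus strand: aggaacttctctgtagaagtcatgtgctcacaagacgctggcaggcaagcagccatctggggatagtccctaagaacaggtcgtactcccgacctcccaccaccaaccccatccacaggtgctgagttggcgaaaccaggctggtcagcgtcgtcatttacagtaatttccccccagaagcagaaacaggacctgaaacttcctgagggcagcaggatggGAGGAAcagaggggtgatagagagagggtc
Cd68, chr11:69666171-69666420, minus strand: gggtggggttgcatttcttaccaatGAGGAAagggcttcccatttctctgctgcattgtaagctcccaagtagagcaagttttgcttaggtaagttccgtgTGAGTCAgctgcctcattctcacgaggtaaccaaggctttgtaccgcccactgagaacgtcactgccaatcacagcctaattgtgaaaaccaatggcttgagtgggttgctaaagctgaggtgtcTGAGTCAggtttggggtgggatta
The PU.1 core began 30 bases before the start of C1qb and 225 bases before that of Cd68. Cd68 also held the AP-1 motif at 149 and 24 bases before its start. Neither string of letters was in the window of Pla2g7 or Lyz2. Of the 32851 promoter windows of this length in the table, 23.3% held the PU.1 core and 4.5% the AP-1 motif. In the order of genes in the RefSeq annotation, C1qb, C1qc and C1qa, which encode the chains of C1q, lie next to each other on chromosome 4.

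Signal on each array was scaled by the authors to a common trimmed mean (500.3 on every array to 4 digits), and no depth applies; the number of arrays limits the precision. A probe set was tested when its mean over all arrays was at least 79.4, which 8695 of the 12422 reached, 9 of the 11 members among them. Those 9 averaged over 79.4 in each of the 4 groups. The 2 members below the limit were second probe sets of Lyz2 (162309_at, mean 22.8) and Cd68 (162173_i_at, mean 15.2). Arrays 05 to 08, numbered as in the sample titles, were the female arrays at 5 days, 1 per group, and stood apart: their median Spearman correlation with the other arrays was 0.895 to 0.934, against 0.943 to 0.969 for the other 16, and their ratio of 3′ to 5′ beta-actin signal, a sign of RNA quality, was 1.74 to 2.61, against 1.22 to 1.98. Differences below are log2 differences of intensity plus 38, estimated with limma over all 20 arrays with terms for sex and days, and adjusted p-values cover all 8695 probe sets. Nothing in the labels says whether pools of a group came from separately fed mice, so p-values measure the spread between these pools.

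Most genes on a list of macrophage markers gave a signal above the filter. Of the 13 markers, 10 passed it. None was at 0 on any array, but this held for the markers of every other cell type listed, so it is no sign of detection. Adgre1, which encodes the F4/80 antigen, the scavenger receptor Msr1 and the integrin Itgam were below the limit, with means of 49.8, 55.3 and 24.9. In whole kidney RNA, a change in the number of macrophages and a change in RNA per macrophage cannot be told apart.

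Pla2g7 was higher in Hyp than in normal kidneys on either diet, by about 1.8-fold on the scale of intensity plus 38. That scale understates folds of the intensity itself. Pla2g7 was the member that passed the test between genotypes. On low phosphate diet, its scaled intensity was 239, 396, 457, 381 and 429 in the 5 Hyp pools, against 158, 216, 196, 188 and 186 in the 5 normal pools. On control diet, it was 397, 507, 429, 338 and 482 in Hyp pools, against 185, 246, 228, 254 and 187 in normal pools. On each diet every Hyp pool lay above every normal pool, which 0.518% of all probe sets tested showed in that direction on each diet. The lowest Hyp pool, male mice at 5 days on low phosphate (array 04), lay inside the range of normal pools on control diet.

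**Figure D1:**
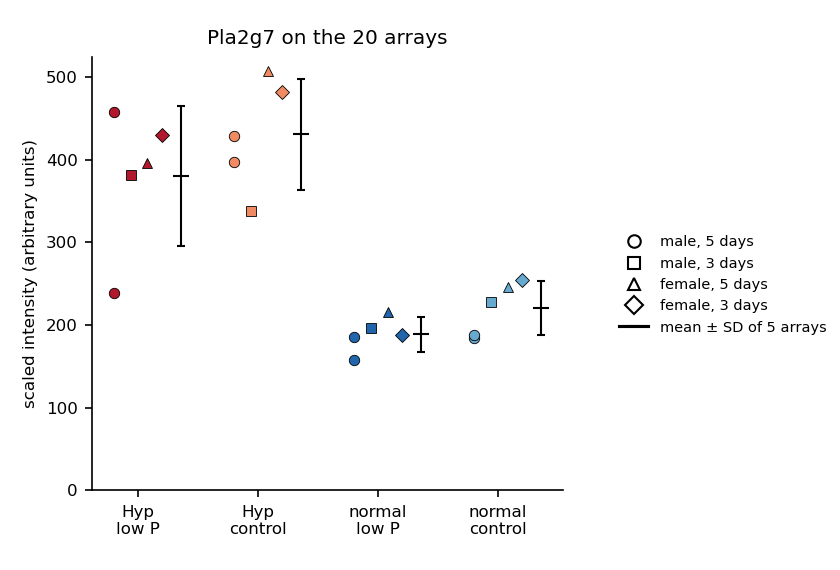
Scaled intensity of Pla2g7 (vertical axis, arbitrary units) on the 20 arrays in the 4 groups, with the marker giving sex and days on diet and the bar the mean ± SD of 5 arrays. The Hyp pools sit between 239 and 507 and the normal pools between 158 and 254, with 1 Hyp pool on low phosphate diet at 239 inside the normal range.

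Group means were 380.5 ± 84.6 in Hyp on low phosphate, 430.4 ± 67.2 in Hyp on control diet, 189 ± 21.03 in normal on low phosphate and 220.0 ± 32.7 in normal on control diet (SD, n = 5 each). The log2 difference between Hyp and normal was 0.86 on low phosphate diet (95% interval 0.58 to 1.14, limma adjusted p = 0.0037), a fold of 1.82 in intensity plus 38. On control diet it was 0.86 as well (0.58 to 1.14, adjusted p = 0.0093), a fold of 1.81. Averaged over diets the difference was 0.86 with an SE of 0.09 (adjusted p = 8.8e-05). An exact two-sided permutation test over arrays gave p = 0.0079 on each diet, the smallest that 5 against 5 allows (0.0158 after Benjamini-Hochberg adjustment over 4 comparisons of the gene). With no overlap between the pools the test could give no other value, so it adds nothing to the lack of overlap. The adjustment does not cover the choice of the gene, which was made with earlier results of these data known. Without arrays 05 to 08 the difference on control diet was 0.84 and missed the threshold (adjusted p = 0.11), while that on low phosphate diet was 0.88 and passed (adjusted p = 0.033).

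The genotype difference of Pla2g7 had the same sign wherever Hyp and normal pools could be set side by side. The titles number the arrays in runs, 4 of which hold all 4 groups at 1 sex and duration; whether a run was a batch is not stated. In the 8 pairs within these runs, Hyp was higher in 8, by 0.50 to 1.05. With 5-day arrays alone, the difference was 0.81 on low phosphate and 0.99 on control diet, and with 3-day arrays alone it was 0.94 and 0.67 on the same diets; none of these 4 values passed the threshold in its smaller fit (adjusted p = 0.25 to 0.58). The difference of the genotype effect at 5 days from that at 3 days was 0.09 (interval -0.32 to 0.50, adjusted p = 0.96).

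Diet moved Pla2g7 by less than the spread between pools. Low phosphate minus control diet was -0.18 in Hyp (interval -0.46 to 0.10, adjusted p = 1.00) and -0.18 in normal mice (-0.46 to 0.10, adjusted p = 0.78). In normal mice the low phosphate pool was the lower in 5 of 5 pairs within runs of arrays, by 0.01 to 0.37; in Hyp mice it was the lower in 3 of 5. The exact permutation p was 0.40 in Hyp and 0.13 in normal mice (0.40 and 0.18 adjusted over the 4 comparisons). The diet effect in Hyp minus that in normal mice was 0.00 (interval -0.39 to 0.40). In the order of its levels, Hyp on control diet came first, then Hyp on low phosphate, normal on control diet and normal on low phosphate, and neither pair that differs by diet differed beyond its spread.

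Among the 8 tested probe sets of the 6 macrophage genes, the 5 genes other than Csf1r averaged higher in Hyp than in normal mice by their brighter probe set, but by much less than Pla2g7 and within the spread of the pools. None of the 8 passed the threshold on either diet or averaged over diets. With Pla2g7, 1 of 9 member probe sets was called in each genotype comparison, where 0.357% of all probe sets tested were called on low phosphate diet, 0.253% on control diet and 1.28% averaged over diets. Over the 6 genes the median log2 difference was 0.29 on low phosphate and 0.07 on control diet, with 5 of 6 above 0 on each; over all probe sets tested the median was 0.02 on each and 54.2% and 53.5% were above 0.

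**Figure D2:**
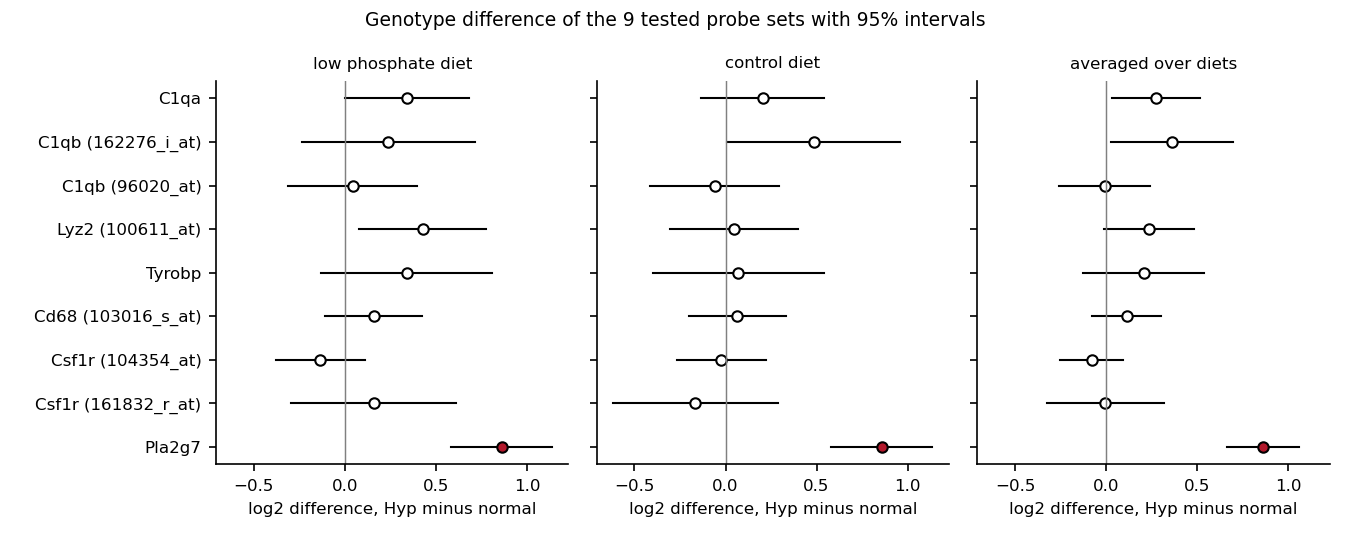
Log2 difference between Hyp and normal mice (horizontal axis) for the 9 tested probe sets on low phosphate diet, on control diet and averaged over diets, with 95% intervals; filled points passed an adjusted p of 0.05. Pla2g7 at 0.86 is the filled point in each panel, and the macrophage probe sets lie between -0.17 and 0.48 with open points.

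C1qa, the first chain of C1q, measured 540.4, 301, 464, 549.6 and 462 in Hyp and 417, 154, 391, 371 and 538 in normal pools on low phosphate diet. On control diet the values were 670.3, 304, 369, 599.9 and 639.7 in Hyp and 491, 260.4, 580.2, 362 and 501 in normal pools. The ranges overlapped on both diets, and in each group the lowest pool was the females at 5 days. Averaged over diets C1qa was 0.27 higher in Hyp (SE 0.11, adjusted p = 0.28), with 0.34 on low phosphate (adjusted p = 0.52) and 0.20 on control diet (adjusted p = 0.74). Within runs of arrays Hyp was higher in 8 of 8 pairs, by 0.05 to 0.83. Arrays 09 and 10 are Hyp only and arrays 19 and 20 normal only, all males at 5 days; without these 4 the difference was 0.42 and passed the threshold (adjusted p = 0.047).

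C1qb, the second chain, gave different values by its 2 probe sets. Probe set 162276_i_at averaged 321 ± 121 and 287 ± 206 in Hyp and normal mice on low phosphate diet, and 369 ± 163 and 255 ± 130.1 in Hyp and normal mice on control diet (SD, n = 5 each), a difference of 0.36 averaged over diets (SE 0.16, adjusted p = 0.30). Most of this lay in 4 arrays: the Hyp arrays 09 and 10 read 598 and 387 and the normal arrays 19 and 20 read 146 and 184, and without them the difference was 0.11 (adjusted p = 0.77). Within runs of arrays, Hyp was higher in 5 of 8 pairs. Probe set 96020_at averaged 256 ± 111 in Hyp and 246 ± 102 in normal mice on low phosphate diet, and 325 ± 127 in Hyp and 326 ± 72.3 in normal mice on control diet, a difference of -0.01 averaged over diets (adjusted p = 0.98). In the usual naming of such arrays, _i_at marks an incomplete set of probes, _s_at probes shared between transcripts and _r_at a set for which design rules were dropped.

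**Figure D3:**
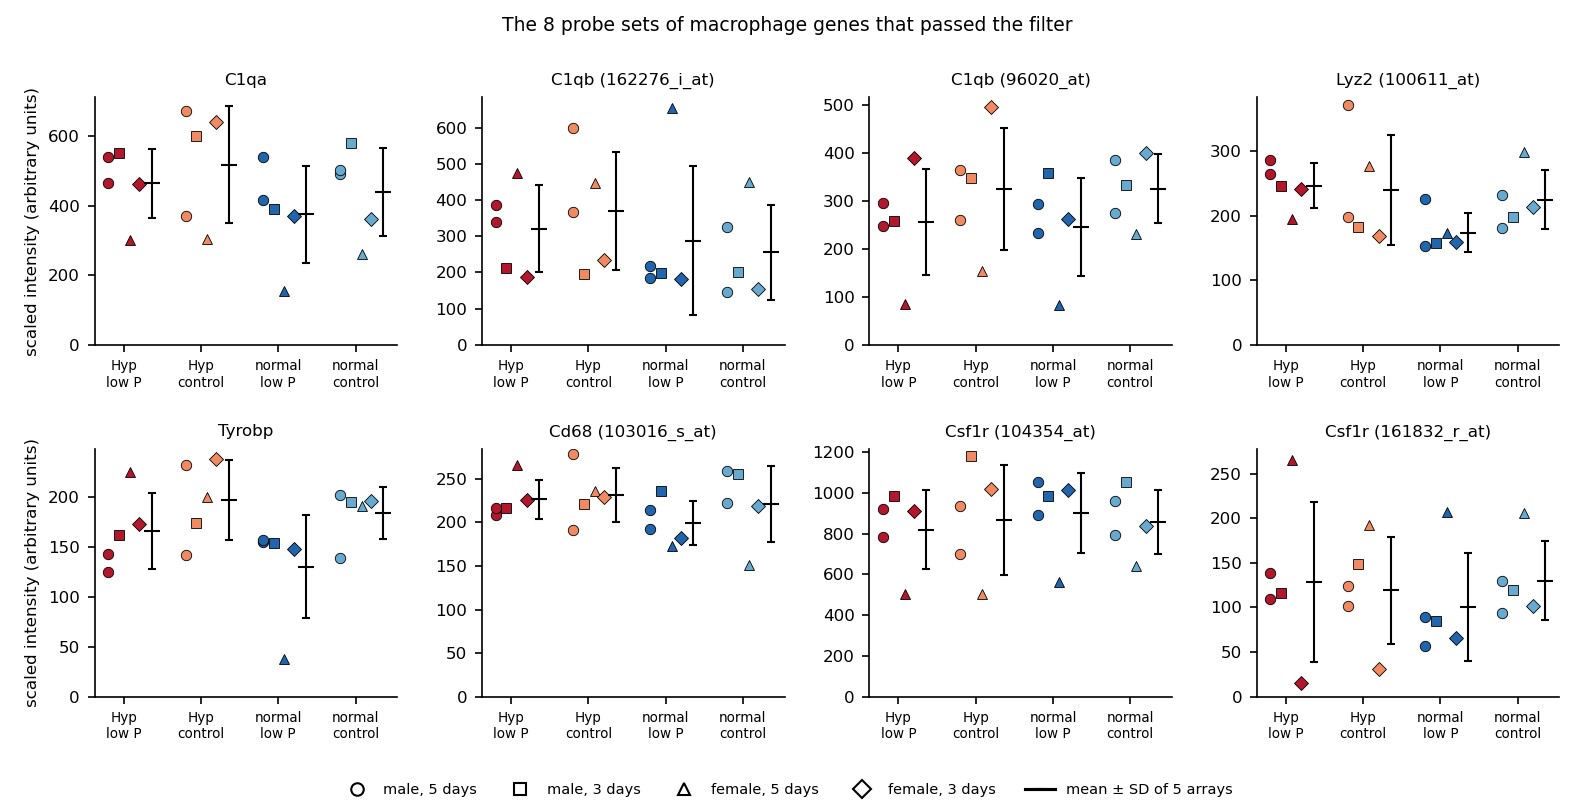
Scaled intensity (vertical axes, arbitrary units) of the 8 macrophage probe sets that passed the filter in the 4 groups, with the marker giving sex and days on diet and the bar the mean ± SD of 5 arrays. In every panel Hyp and normal pools overlap on both diets, and the female 5-day pools (triangles) are the lowest of each group for C1qb 96020_at and Csf1r 104354_at and the highest for Csf1r 161832_r_at.

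Lyz2 (100611_at) averaged 247 ± 34.3 in Hyp and 174 ± 30.01 in normal mice on low phosphate diet. The Hyp pools read 265, 194, 287, 247 and 241 and the normal pools 226, 174, 158, 159 and 153, so that 1 normal pool exceeded 1 Hyp pool. The log2 difference was 0.43 (SE 0.17, unadjusted p = 0.019, limma adjusted p = 0.44), and Hyp was higher in 4 of 4 pairs within runs of arrays. On control diet it averaged 239.6 ± 85.3 in Hyp and 225 ± 45.7 in normal mice, a difference of 0.05 (adjusted p = 0.96), and Hyp was higher in 1 of 4 pairs. The test of the change between diets gave 0.38 (interval -0.11 to 0.88, adjusted p = 1.00). The probe set shared by Lyz1 and Lyz2, not a member, averaged lower in Hyp on both diets. It was 76.3 ± 34.4 in Hyp and 83.2 ± 62.8 in normal mice on low phosphate, and 98.8 ± 87.7 and 125.0 ± 35.8 on control diet.

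Tyrobp averaged 166 ± 38.0 in Hyp and 130.4 ± 52.0 in normal mice on low phosphate diet, and 197 ± 40.5 in Hyp and 185 ± 26.0 in normal mice on control diet. The differences were 0.34 (adjusted p = 0.67) and 0.07 (adjusted p = 0.95). A single normal pool on low phosphate diet, array 06, read 37.6, with the other 4 at 148 to 157, and without it the difference on that diet was 0.03. Cd68 (103016_s_at) varied least, at 227 ± 22.6 in Hyp and 199.6 ± 25.4 in normal mice on low phosphate diet and 231 ± 31.2 in Hyp and 221 ± 43.5 in normal mice on control diet, with differences of 0.16 and 0.07 (adjusted p = 0.73 and 0.91).

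Csf1r (104354_at) did not share the upward direction. It averaged 819.5 ± 192 in Hyp and 901 ± 198 in normal mice on low phosphate diet, and 867 ± 268 in Hyp and 858 ± 159 in normal mice on control diet. The difference averaged over diets was -0.08 (interval -0.25 to 0.09, adjusted p = 0.67), an interval that leaves out the difference measured for Pla2g7. Its second probe set, 161832_r_at, averaged 129 ± 89.9 in Hyp and 100.5 ± 60.9 in normal mice on low phosphate diet and 119 ± 60.1 in Hyp and 130.1 ± 44.6 in normal mice on control diet, a difference of 0.00 averaged over diets (adjusted p = 0.99). The dim second probe sets, not tested, ranged over all pools from 2.8 to 56.1 for Lyz2 and from 3.9 to 56.2 for Cd68.

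Low phosphate diet left the macrophage genes within the spread of the pools in both genotypes, though most averaged lower on it. By the brightest probe set, 1 of the 6 genes was above 0 in Hyp mice (median -0.08) and 2 in normal mice (median -0.18). Over all probe sets tested, 51.2% and 52.3% were above 0. Averaged over genotypes, 0 of the 6 were above 0 (median -0.09), with Csf1r at 0.00, against 52.9% of all probe sets tested. No member passed the threshold, where 0.15% of all probe sets tested did in Hyp mice and 0.184% in normal mice (limma; 399 and 744 probe sets had an unadjusted p under 0.05). The lowest adjusted p among members was 0.44, for C1qb 96020_at in normal mice, at -0.43 (interval -0.79 to -0.08). In Hyp mice the same probe set differed by -0.33 (adjusted p = 1.00), and the low phosphate pool was the lower in 5 of 5 pairs in Hyp and in 4 of 5 in normal mice. Averaged over genotypes it differed by -0.38 (SE 0.12, unadjusted p = 0.0050, adjusted p = 0.24), with 0.472% of all probe sets called. C1qb 162276_i_at did not follow, at -0.03. Tyrobp differed by -0.48 in normal mice (adjusted p = 0.58), and by -0.17 without array 06. Averaged over genotypes, with array 06 kept, Tyrobp differed by -0.34 (limma unadjusted p = 0.045, adjusted p = 0.49). The test of a different diet effect in Hyp and normal mice called no member, where 0.046% of all probe sets were called, and the macrophage members ranged from -0.25 to 0.38.

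Between 5 and 3 days on the diets, C1qa, C1qb and Csf1r changed, but both C1qb and Csf1r did so in opposite directions by their 2 probe sets. Of 9 member probe sets 5 were called, beside 40.9% of all probe sets tested (20.7% higher and 20.2% lower), so the members' share was near the background. C1qa fell by 0.42 (adjusted p = 0.0098), C1qb 96020_at by 0.73 (adjusted p = 0.00044) and Csf1r 104354_at by 0.50 (adjusted p = 0.00046). C1qb 162276_i_at was higher at 5 days by 0.87 (adjusted p = 0.00088) and Csf1r 161832_r_at by 0.73 (adjusted p = 0.0021). Lyz2, Tyrobp, Cd68 and Pla2g7 did not pass, at 0.22, -0.19, -0.06 and -0.03.

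Each of these 5 differences was larger with the female 5-day arrays, 05 to 08, than without them. Csf1r 104354_at measured 552 ± 66.4 in females at 5 days, against 945 ± 87.1 in females at 3 days (SD, n = 4 each), and 879 ± 115 in males at 5 days (n = 8), against 1051 ± 93.6 in males at 3 days (n = 4). C1qb 96020_at measured 138 ± 69.8 at 5 days and 387 ± 96.1 at 3 days in females, and 295 ± 54.2 at 5 days and 325 ± 45.4 at 3 days in males. In contrast, C1qb 162276_i_at measured 507 ± 99.6 at 5 days and 189 ± 33.4 at 3 days in females, and 320.4 ± 143 at 5 days and 203 ± 7.4 at 3 days in males. Csf1r 161832_r_at measured 218 ± 32.4 at 5 days and 53.2 ± 38.9 at 3 days in females, and 105 ± 26.6 at 5 days and 117 ± 25.9 at 3 days in males.

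**Figure D4:**
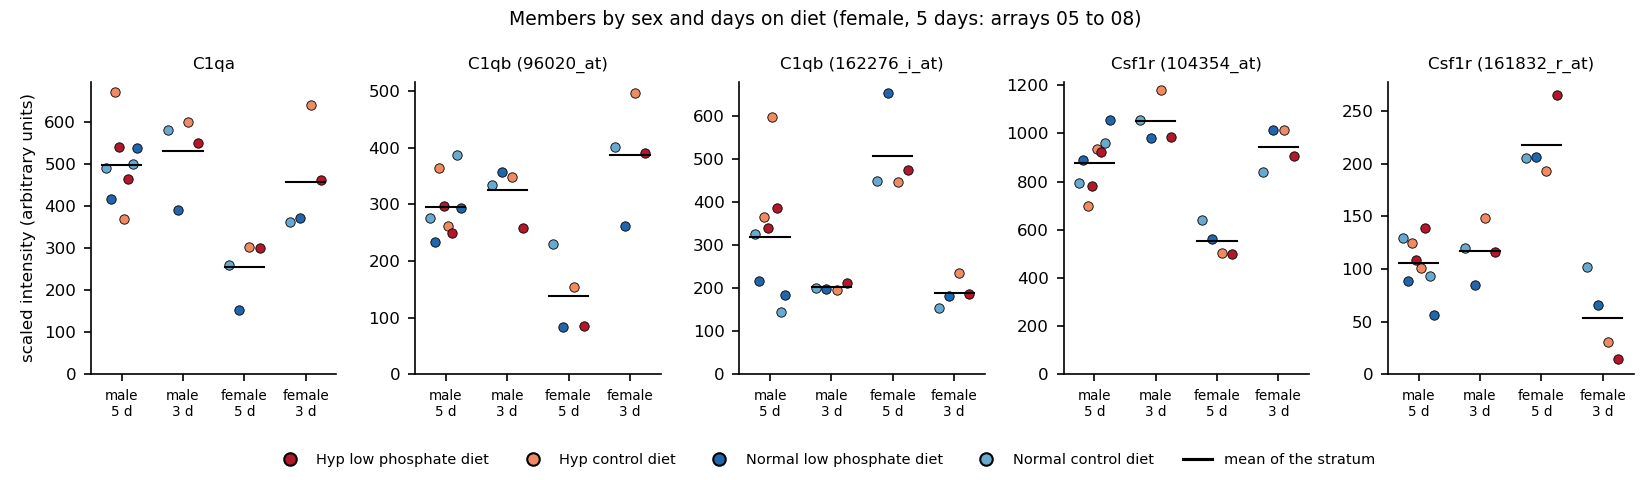
Scaled intensity (vertical axes, arbitrary units) of C1qa and of both probe sets of C1qb and Csf1r by sex and days on diet, with points coloured by group and a line at the mean of each stratum. The female 5-day pools are low for C1qa (mean 255), C1qb 96020_at (138) and Csf1r 104354_at (552) and high for C1qb 162276_i_at (507) and Csf1r 161832_r_at (218).

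In males alone, 0 of 9 member probe sets were called between 5 and 3 days (limma; 0.069% of all probe sets called), and the lowest unadjusted p was 0.058, for C1qb 162276_i_at at 0.48. There C1qa differed by -0.08, C1qb 96020_at by -0.13, Csf1r 104354_at by -0.25 and Csf1r 161832_r_at by -0.12, the last against its direction over all arrays. Leaving out arrays 05 to 08 gave the same differences and 0 calls, with 0.299% of all probe sets called; C1qb 162276_i_at and Csf1r 104354_at had an unadjusted limma p of 0.036 and 0.040. In females, duration and the lower quality of these arrays cannot be told apart.

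Between males and females 3 of 9 member probe sets were called, beside 16.6% of all probe sets (8.67% in this direction): C1qa was higher in males by 0.55 (adjusted p = 0.0054), C1qb 96020_at by 0.39 (adjusted p = 0.041) and Csf1r 104354_at by 0.39 (adjusted p = 0.0060). Without arrays 05 to 08 none was called (0.219% of all probe sets called), at 0.21, -0.21 and 0.15, and 1 member, Csf1r 161832_r_at, had an unadjusted p under 0.05. Pla2g7 measured 282 ± 110.3 in males (n = 12), against 340 ± 127 in females (n = 8), a difference of -0.23 that did not pass (adjusted p = 0.11) and was -0.18 without arrays 05 to 08.

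The genotype and diet differences of the members were not shown to depend on duration. Neither the genotype difference nor the diet difference at 5 days minus that at 3 days was called for any member, with 0% of all probe sets called in both (limma; 474 and 291 had an unadjusted p under 0.05). The largest genotype term among members was 0.59 for Csf1r 161832_r_at (interval -0.01 to 1.19, adjusted p = 0.88).

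Most other macrophage and myeloid genes tested averaged higher in Hyp, without passing the test. Of 49 such genes 24 were tested, and none passed the threshold between genotypes, yet 21 on low phosphate diet, 20 on control diet and 20 averaged over diets were higher in Hyp. Their median was 0.18 averaged over diets, where 55.2% of all probe sets tested were above 0, with a median of 0.02. Lst1, a membrane protein of leukocytes, measured 308 ± 144 in Hyp and 177 ± 85.1 in normal mice on low phosphate diet and 262.5 ± 105 in Hyp and 234.5 ± 95.3 in normal mice on control diet, 0.42 averaged over diets (adjusted p = 0.10). Cybb, the catalytic subunit of the phagocyte NADPH oxidase, differed by 0.37 (adjusted p = 0.20). C1qc, the third chain of C1q and the neighbour of C1qa and C1qb, differed by 0.27 (adjusted p = 0.24). Spi1, which encodes PU.1, differed by 0.26 (adjusted p = 0.32). Under low phosphate diet no gene of the list passed in either genotype, with medians of -0.08 in Hyp and -0.04 in normal mice. Between 5 and 3 days, 7 were called higher and 2 lower, beside 20.7% and 20.2% of all probe sets tested.

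**Figure D5:**
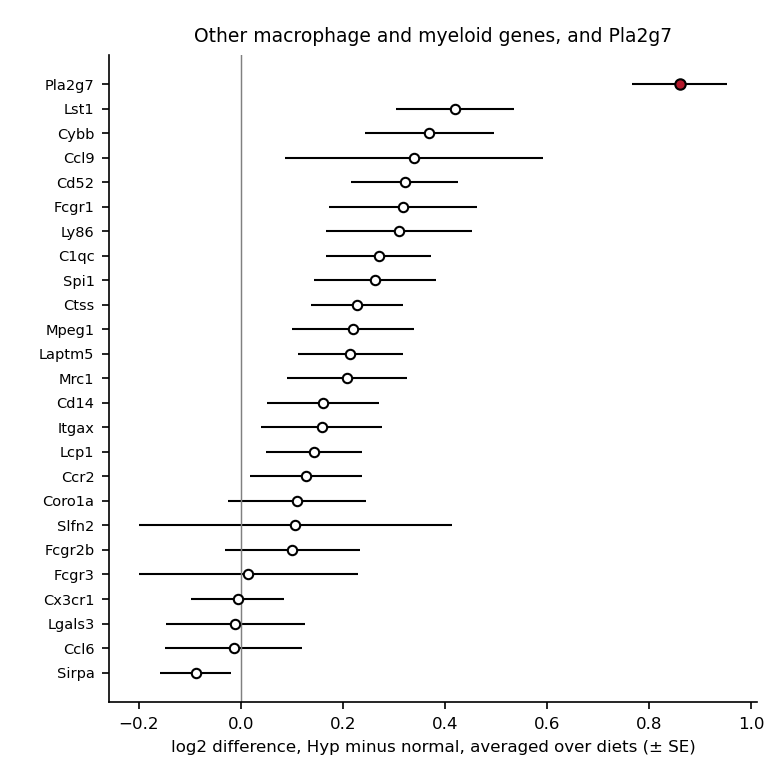
Log2 difference between Hyp and normal mice averaged over diets (horizontal axis, ± SE) for 24 other macrophage and myeloid genes and Pla2g7; the filled point passed an adjusted p of 0.05. Of the 24, 20 lie above 0, from -0.09 for Sirpa to 0.42 for Lst1, and Pla2g7 is at 0.86.

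The summed intensity of the 13 macrophage markers, which include the 6 members, separated the genotypes narrowly on low phosphate diet. It was 4314 to 5220.3 (median 4771) in Hyp and 4090.0 to 4287 (median 4157) in normal mice, with no overlap. On control diet it was 4458 to 5423 (median 4854) in Hyp and 3879 to 4759 (median 4197) in normal mice, with overlap. This sum thus lay higher where Pla2g7 did, though by a much smaller factor, and its part in the Pla2g7 difference was not tested. Among single probe sets tested, 0.518% lay higher in Hyp without overlap on low phosphate diet. The sum includes markers below the filter. Of the 6 members in it, 5 averaged higher in Hyp on that diet and Csf1r lower (820 in Hyp, against 901 in normal mice). The tested markers outside the members also averaged higher in Hyp there. They were Mpeg1 (637 ± 280, against 484 ± 98.8), C1qc (812 ± 146, against 686 ± 99.4), Cd14 (813 ± 93.0, against 731 ± 172) and Mrc1 (97.0 ± 23.7, against 88.6 ± 65.4). The 3 red blood cell markers measured of 6, none at 0, had a higher median sum in Hyp on low phosphate diet (11247, against 8392 in normal mice). The ranges overlapped slightly there (10308 to 12656 in Hyp, against 6878 to 10401 in normal mice). On control diet they overlapped widely (6660.2 to 15231 in Hyp, against 8685 to 11888 in normal mice). Most of this sum was Hba-a1, with a mean of 9669, against 252 for Alas2 and 484 for Slc4a1. Averaged over diets 1 of these 3 genes was called, beside 1.28% of all probe sets tested: the anion exchanger Slc4a1, 0.35 higher in Hyp (limma adjusted p = 0.043). Alas2, of heme synthesis, differed by 0.45 (limma adjusted p = 0.17).

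Among genes of the pathways these members belong to, those that passed the test did so averaged over diets, where 1.28% of all probe sets tested were called. Of 13 tested genes of CSF1 receptor and ITAM adaptor signalling, 1 was called: Blnk, an adaptor of B cell receptor signalling, at 632 ± 87.2 in Hyp and 500.4 ± 56.1 in normal mice on low phosphate diet and 677 ± 59.3 in Hyp and 472 ± 64.2 in normal mice on control diet, a difference of 0.40 (adjusted p = 0.014). Csf1, a ligand of Csf1r, differed by 0.12 (adjusted p = 0.56), and Inpp5d, a phosphatase that restrains such signals, by 0.33 (adjusted p = 0.57). Of 9 tested complement genes 1 was called: C2, a component that activated C1 cleaves, at 835 ± 126 in Hyp and 577 ± 52.3 in normal mice on low phosphate diet and 619 ± 96.7 in Hyp and 516 ± 85.8 in normal mice on control diet, a difference of 0.37 (adjusted p = 0.024). Cfb, factor B of the alternative pathway, differed by 0.49 (adjusted p = 0.29), with SDs close to its means.

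Of the enzymes and receptors around platelet-activating factor, the substrate of Pla2g7, none passed the test between genotypes on either diet alone. Averaged over diets, 1.28% of all probe sets tested were called. Of 14 tested genes of the platelet-activating factor and phospholipase A2 list, 7 were above 0 averaged over diets and 1 was called: Pla2g4a, the cytosolic phospholipase A2 that releases arachidonic acid, chosen for mention after its values were seen, was 0.36 higher (adjusted p = 0.036; 223 ± 18.8 in Hyp and 166 ± 64.3 in normal mice on low phosphate diet, 222 ± 36.1 in Hyp and 169 ± 28.9 in normal mice on control diet). The intracellular acetylhydrolase genes Pafah1b1, Pafah1b2, Pafah1b3 and Pafah2 differed by 0.00, 0.02, -0.11 and -0.19, and Ptafr, the receptor of platelet-activating factor, by 0.04, without passing. Pla2g6 and Pla2g10, a calcium-independent and a secreted phospholipase A2, differed by -0.47 (adjusted p = 0.23) and 0.41 (adjusted p = 0.24).

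Of 5 tested monocyte chemokine and adhesion genes none was called, with Cxcl1, a neutrophil chemokine, at 0.42 (adjusted p = 0.082) and the adhesion molecule Vcam1 at 0.32 (adjusted p = 0.31). Of 8 tested MHC class II genes none was called and 8 were above 0, with H2-Eb1 at 0.30 (adjusted p = 0.26) and Cd74, the invariant chain, at 0.22 (adjusted p = 0.26). Of 13 tested lysosomal genes none was called in these fits by its brightest probe set, with a median of -0.01, Hexa at 0.25 (adjusted p = 0.14) and Ctsz at -0.20 (adjusted p = 0.57).

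Markers of other immune cells were mostly dim: 2 of 10 T cell, 5 of 8 B cell, 4 of 10 neutrophil and 2 of 5 dendritic cell markers were tested, no platelet marker was, and none was called between genotypes. Examples are the T cell genes Zap70 (0.11) and Cd4 (0.07), the B cell genes Ms4a1 (0.40, adjusted p = 0.085) and Pax5 (-0.29), the neutrophil genes Elane (0.17) and Csf3r (0.16) and the dendritic cell genes Xcr1 (0.34) and Flt3 (0.08). The 8 tested endothelial and 7 fibroblast markers included no call either, with Cdh5 at 0.20, Emcn at 0.16, Pdgfra at 0.36 and Col1a1 at -0.26. Of the tubular markers, the glucose transporter Slc2a2 of the proximal tubule was lower in Hyp averaged over diets (-0.34, limma adjusted p = 0.012). The calcium-binding protein Calb1 of the distal nephron was lower by more (-0.71, adjusted p = 6.4e-05). Slc12a3, the sodium chloride cotransporter of the distal nephron, was higher (0.33, adjusted p = 0.034). Of the 6 tested distal nephron markers, 4 were above 0 in this average, with a median of 0.03. By single diets, Slc2a2 was called on control diet alone, at 2170 in Hyp and 3046 in normal mice (3134 and 3633 on low phosphate). Calb1 was called on low phosphate diet alone, at 1815 in Hyp and 4478 in normal mice (4192 and 4665 on control diet). The 7 measured of 10 proximal tubule markers, none at 0, summed lower on the side where Pla2g7 was higher. The sums were 43287 to 55789 in Hyp and 55142 to 66968 in normal mice on low phosphate diet. On control diet they were 48320 to 55489 in Hyp and 52378 to 60000 in normal mice. The log2 difference was above 0 for 0 of the 7 on low phosphate and for 1 on control diet. Slc34a1 measured 11880 in Hyp and 15560 in normal mice on low phosphate diet, and 11500 and 13810 on control diet. On control diet Lrp2 (8631 in Hyp, 8512 in normal mice) and Miox (18990 and 19030) differed by less than their SDs. The part of these markers in the Pla2g7 difference was not tested.

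Across the 20 arrays, after the mean of each combination of sex and days was taken off, the genes most like Pla2g7 were Nrp1 (Pearson r = 0.92, Spearman rho = 0.94), Ttr (0.91 and 0.93) and Plscr1 (0.88 and 0.89). These are descriptions over arrays that share the 4 groups, and the 3 genes ran in the same order of groups as Pla2g7. Ttr, which encodes the carrier transthyretin, measured 1107 ± 244 in Hyp on low phosphate, 3437 ± 903 in Hyp on control diet, 161 ± 40.5 in normal on low phosphate and 435 ± 51.0 in normal on control diet (SD, n = 5 each), so unlike Pla2g7 it was far lower on low phosphate diet within each genotype.

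The search for the genes most like each member left out the members themselves, whose correlations with each other follow. C1qa was closest to Psmb8, Pfkp and Thbd (r = 0.89, 0.82 and 0.82), Lyz2 to Wsb1, Bcl6b and Btg2 (0.89, 0.76 and 0.75), Tyrobp to Lrp1, Fli1 and Mgp (0.91, 0.90 and 0.88), Cd68 to Tmsb4x, Sult1a1 and Casq2 (0.84, 0.76 and 0.75) and Csf1r to Rtcb, Ahcy and Slc30a4 (0.74, 0.73 and 0.71). Without arrays 05 to 08 the values of Tyrobp were 0.69, 0.64 and 0.75. C1qb 162276_i_at was closest to Htra2, Cbfb and Gtpbp1 (0.92, 0.91 and 0.90), each measured by a probe set with the suffix _r_at or _s_at. Among the members, C1qa and Tyrobp ran most alike (r = 0.74, and 0.64 without arrays 05 to 08), followed by C1qa with Cd68 (0.56) and Tyrobp with Cd68 (0.55). Csf1r 104354_at ran against Cd68 (-0.63) and Lyz2 (-0.54). The 2 probe sets of C1qb had r = -0.25 and those of Csf1r r = -0.32. Pla2g7 had r = 0.48 with C1qa, 0.47 with Lyz2 and -0.22 with Csf1r 104354_at.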

How the data were processed

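Kidney RNA pooled from 3 mice was measured on each of 20 one-colour oligonucleotide arrays. The deposited values are intensities on a linear scale, 1 per probe set, which the authors had already scaled: from the values, each array's mean after trimming 2% at each end is 500.254 to 500.309. The software and the summary method behind these intensities are not given in the sources used here. Probe sets were named from the platform annotation, in which 10833 of 12422 name 1 gene, 396 several and 1193 none; 66 control probe sets were set aside.

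Values were used as log2(intensity + 38), 38 being the 20th percentile of all values. Probe sets with a mean of at least the 30th percentile, 79.4, were tested (8695) with limma 3.58.1 in R 4.3.3 (lmFit and eBayes, two-sided) with the 4 groups and 4 combinations of sex and days as terms, 13 residual degrees of freedom, and Benjamini-Hochberg adjustment within each comparison at 0.05. Terms for days by genotype or diet left 12. A fold change on this scale understates that of the intensity itself, most for dim probe sets. The procedure was tested on simulated data. Pla2g7 alone was also tested by exact permutation of arrays.

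The 7 members and the gene lists were chosen with earlier results of these data known. The genes named are the members, the genes of each list that passed on a single diet, in a single genotype or in the test of both together and otherwise the 2 with the largest genotype difference averaged over diets, and the 3 genes most correlated with each member; Spi1, C1qc, Csf1, the Pafah genes, Ptafr, Pla2g4a, Slc12a3 and Sirpa were named beside these after their values were seen. A gene with several probe sets is represented by its brightest, and each probe set of a member is described. Alternatives were another offset, quantile normalization, other filters, variance trend, no sex and days terms, subsets of arrays, array weights, the runs of title numbers as a block and leaving out each array.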

Additional observations from a re-analysis of the deposited data

Results flagged for a closer look

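In each probe set of the members and each group of 5 arrays, 44 in all, the array farthest out was compared with its nearest neighbour, and in 5 the gap exceeded 0.71 of the group's range (Dixon's 95% critical value); chance gives about 1 in 20. In 3 of the 5 the array was 06, a female 5-day pool of normal mice on low phosphate diet and 1 of the 4 arrays that stood apart. It read 655 for C1qb 162276_i_at, against 218 for the next array, and 207 for Csf1r 161832_r_at, against 88.8. For Tyrobp it read 37.6, against 148 for the next lowest. Array 02, of the same group but male, read 226 for Lyz2 100611_at, against 174. Array 19, a male 5-day pool of normal mice on control diet, read 138.5 for Tyrobp, against 191 for the next lowest. No explanation was tested.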

How the results depend on the processing

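Pla2g7 was higher in Hyp in each of the alternatives run, by 0.75 to 0.98 on low phosphate diet, by 0.67 to 0.99 on control diet and by 0.80 to 0.97 averaged over diets. It was called in 30 of 35, 29 of 35 and 30 of 34 alternatives in these comparisons, and the calls lost were in fits to fewer arrays. Member probe sets called numbered 0 in place of 1 in males only, females only, 5 days only and 3 days only in the 3 genotype comparisons, 0 with only the 2 groups compared on either diet (adjusted p = 0.17 on low phosphate and 0.12 on control diet), 0 without arrays 05 to 08 on control diet, and 2 without arrays 09, 10, 19 and 20 averaged over diets, where C1qa joined. Between 5 and 3 days, 0 in place of 5 were called in males only and without arrays 05 to 08. Between sexes, 0 in place of 3 were called at 3 days only and without arrays 05 to 08. Leaving out each array in turn gave 1 to 1 in the 3 genotype comparisons, 5 to 5 between days, 2 to 4 between sexes and 0 to 0 in the others. Of 3254 values of single probe sets under alternatives, 42 lost a call, 5 gained one and 4 called values turned: Csf1r 161832_r_at between days to -0.12 in males only and without arrays 05 to 08, C1qb 96020_at between sexes to -0.21 at 3 days only and without arrays 05 to 08. Csf1r 161832_r_at between sexes, not called over all arrays, was -0.85 and called at 5 days only. The others kept their side of the threshold, 210 of them changing sign with no call in either setting. The cause was not tested beyond the arrays left out. No test of pairs was run, because the groups share no replicate number, the array numbers being different in each. Pairs within the runs of title numbers were described only. The runs fitted as a block in the genotype and diet comparisons changed no call of a member.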
